A study of Mus musculus with 17 samples.

Results

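The 34 genes described here write, erase or read lysine acetylation, and each was taken by its symbol from the deposited tables of RNA-seq, scRNA-seq, CUT&RUN and ATAC-seq. They comprise 11 zinc-dependent histone deacetylases (Hdac1 to Hdac11), 7 sirtuins (Sirt1 to Sirt7), 9 acetyltransferases that act on chromatin (Ep300, Crebbp, Kat2a, Kat2b, Kat5, Kat6a, Kat6b, Kat7 and Kat8), the tubulin acetyltransferase Atat1 and 6 bromodomain proteins (Brd1, Brd2, Brd3, Brd7, Brd8 and Brd9). All 34 were among the 20328 genes of RNA-seq and the 26648 of scRNA-seq. In the CUT&RUN table, which lists regions with the histone mark H3K27ac, 34 of 11424 regions were assigned to 23 of them. In the ATAC-seq table, 4 of 3582 regions were assigned to 3 of them.

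The animals were wild type ICR mice, 8 weeks old, and the tissue was brain. The PD model was made with the toxin 6-hydroxydopamine (6-OHDA), of which 10 µg per µl was injected into the substantia nigra on 1 side, and sham animals were the healthy controls. In the NDST3-treated PD model (6-OHDA+NDST3), 2 µl of an AAV9 vector carrying human NDST3 under the CMV promoter, which is not restricted to a cell type, was injected 5 days after the lesion. RNA-seq had 2 sham libraries, 1 library of the PD model and 2 of the NDST3-treated PD model, and no source used here says whether the 2 came from separate animals, so the p-values measure only the spread between these libraries. No library of the vector without NDST3 was analysed here.

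Acetylation of a lysine removes its positive charge. Acetyltransferases take the acetyl group from acetyl-CoA, zinc-dependent deacetylases release it as acetate, and sirtuins transfer it to NAD, which ties them to the metabolic state of the cell. Bromodomains bind acetylated lysines and bring transcription factors or chromatin remodelers to them. H3K27ac itself is laid down mainly by p300 (Ep300) and CBP (Crebbp) and is found at active promoters and enhancers. Several of these enzymes act outside the nucleus: Hdac6 and Sirt2 remove the acetyl group that Atat1 places on alpha-tubulin, and Sirt3, Sirt4 and Sirt5 reside in mitochondria.

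RefSeq promoter windows, which run from 250 bases before to 50 after a transcription start in GRCm38.p6, were matched for 29 of the 34 genes (43 windows). No window was matched for Hdac1, Hdac3, Hdac10, Kat6a and Brd8. The windows of 4 genes are shown: Hdac11, which had the largest RNA change; Sirt3 and Kat5, whose RNA fell after the lesion and which also had an H3K27ac region near the start; and Atat1, whose region had the lowest ratio of lesion to sham signal and of whose 2 largely overlapping windows 1 is printed. Each is written 5′ to 3′ on the strand of the gene, and capitals mark the motifs searched on both strands: the GC box GGGCGG, the CCAAT box CCAAT, the TATA box TATAAA, the cAMP response element TGACGTCA, the ETS site CCGGAAGT and the E-box CACGTG.
Hdac11 (chr6:91156565-91156864, plus strand): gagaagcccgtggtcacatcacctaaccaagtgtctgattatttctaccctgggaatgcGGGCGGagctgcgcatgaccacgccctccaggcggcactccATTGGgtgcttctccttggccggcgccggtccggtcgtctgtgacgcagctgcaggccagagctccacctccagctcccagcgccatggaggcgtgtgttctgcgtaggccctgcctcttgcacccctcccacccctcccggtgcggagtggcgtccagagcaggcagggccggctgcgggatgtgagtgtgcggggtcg
Sirt3, upstream start (chr7:140882260-140882559, minus strand): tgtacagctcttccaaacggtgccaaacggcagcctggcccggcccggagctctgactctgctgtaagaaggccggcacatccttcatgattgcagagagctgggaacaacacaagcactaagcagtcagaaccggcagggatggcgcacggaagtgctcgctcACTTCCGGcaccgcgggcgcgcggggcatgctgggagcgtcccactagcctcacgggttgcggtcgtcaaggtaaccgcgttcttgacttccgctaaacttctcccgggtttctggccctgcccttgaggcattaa
Sirt3, downstream start (chr7:140881820-140882119, minus strand): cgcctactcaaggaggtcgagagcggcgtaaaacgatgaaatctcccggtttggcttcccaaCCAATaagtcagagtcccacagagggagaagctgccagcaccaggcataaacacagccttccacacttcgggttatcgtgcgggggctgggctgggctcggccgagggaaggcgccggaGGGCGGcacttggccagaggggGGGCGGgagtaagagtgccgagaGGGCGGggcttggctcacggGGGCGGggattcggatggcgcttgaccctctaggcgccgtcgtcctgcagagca
Kat5, upstream start (chr19:5610045-5610344, minus strand): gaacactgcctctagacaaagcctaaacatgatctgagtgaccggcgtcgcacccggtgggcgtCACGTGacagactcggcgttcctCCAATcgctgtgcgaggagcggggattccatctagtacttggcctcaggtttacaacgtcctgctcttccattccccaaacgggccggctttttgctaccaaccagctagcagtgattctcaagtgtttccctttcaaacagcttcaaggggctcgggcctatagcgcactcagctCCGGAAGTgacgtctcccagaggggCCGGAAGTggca
Kat5, downstream start (chr19:5609695-5609994, minus strand): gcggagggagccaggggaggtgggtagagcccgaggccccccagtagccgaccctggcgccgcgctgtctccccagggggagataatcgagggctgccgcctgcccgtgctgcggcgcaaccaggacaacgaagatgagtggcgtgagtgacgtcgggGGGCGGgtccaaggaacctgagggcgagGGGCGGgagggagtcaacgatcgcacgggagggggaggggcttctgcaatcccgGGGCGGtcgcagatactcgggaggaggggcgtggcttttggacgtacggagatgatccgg
Atat1 (chr17:35910026-35910325, minus strand): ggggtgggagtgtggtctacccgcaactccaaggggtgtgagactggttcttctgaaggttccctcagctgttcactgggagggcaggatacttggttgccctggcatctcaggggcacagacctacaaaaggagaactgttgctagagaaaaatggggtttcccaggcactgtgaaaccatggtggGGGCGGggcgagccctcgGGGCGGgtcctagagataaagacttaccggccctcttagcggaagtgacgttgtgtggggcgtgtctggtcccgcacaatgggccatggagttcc

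The windows of these genes were rich in CpG dinucleotides, with a median of 20 per window and a GC content of 61.3%, against 7 and 52.7% over all 32851 windows. A GC box was present in 28 of the 43 windows, while 35.7% of all windows held it. The ETS site occurred in 5 of the 43 (Kat5, Kat7, Kat8, Sirt3 and Sirt6) and in 3.89% of all windows, and the E-box in 3 (Hdac5, Kat5 and Sirt1) and in 7.15%. The CCAAT box was found in 13 windows (37.4% of all), the TATA box in 2 (Hdac8 and Hdac9, 13.6% of all) and the cAMP response element in none (1.79% of all). The downstream window of Sirt3 held 4 GC boxes, and the upstream window of Kat5 held 2 ETS sites. These are matches of letters and were not tested for binding.

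The levels of the 34 genes in healthy brain spanned a wide range. In TPM, which corrects counts for transcript length and depth, Hdac11 was the highest, at 326 and 340 in the 2 sham libraries, and Sirt2 followed at 313 and 270. Both are known from oligodendrocytes, among other brain cells. Brd2 (117 and 121) and Hdac5 (115 and 122) came next and could not be told apart from each other. Hdac3, Sirt3, Kat5 and Hdac2 formed a group between 77.5 and 90.7 TPM, with overlapping values. The acetyltransferases that lay down H3K27ac were in the lower part of the list, with sham means of 17.4 TPM for Ep300 and 14.9 TPM for Crebbp, ranks 24 and 27 of 34. Hdac10 and Sirt1, both at a mean of 6.8 TPM, were the lowest.

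After the lesion, erasers moved in both directions: Hdac11, Sirt3, Hdac5, Hdac4 and Hdac6 fell, and Hdac1, Sirt7, Sirt2 and Sirt1 rose. Among writers, Kat5, Kat7 and Kat2a fell and Kat2b rose, and Brd8 was the only reader that passed the test. In all, 14 of the 34 genes passed an adjusted p of 0.05 in edgeR's quasi-likelihood test (41.2%), a share near that of all 19300 genes tested, of which 35.8% passed. Of the 14, 9 fell (26.5%, background 17.1%) and 5 rose (14.7%, background 18.8%). The changes were small: the median absolute log2 fold change was 0.39 over the 34 genes and 0.60 over all genes. It was 0.37 over 156 partner genes of these enzymes, described below, so small changes are not particular to the 34. Hdac11 alone reached a fold of 2 with a raw p under 0.05, which 24.5% of all genes did. Without sham replicate 1, or without sham replicate 2, none of the 34 and none of all genes passed the adjusted p in edgeR, although the direction of the 14 stayed the same in every setting run. With the replicate number as a block, 1 of the 14 was left, Hdac11, and 1796 of all genes in place of 6916.

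**Figure D1:**
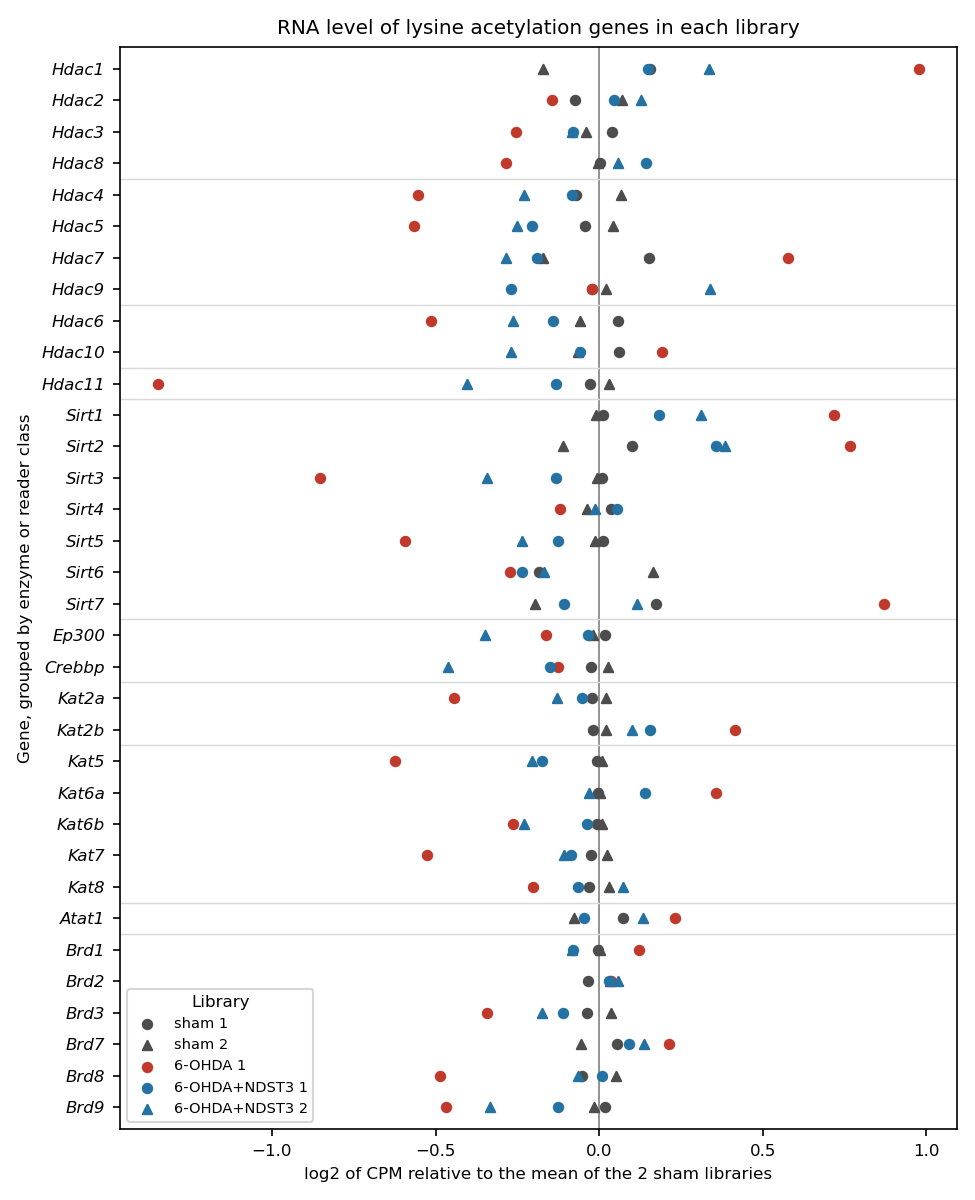
RNA level of the 34 genes in each of the 5 libraries, as the log2 of CPM (read counts scaled to library size) relative to the mean of the 2 sham libraries. The single 6-OHDA library (red) lies outside both sham libraries (grey) for most genes, farthest for Hdac11 on the low side and Hdac1 on the high side, and the 2 libraries of the NDST3-treated PD model (blue) mostly lie between.

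Cell type markers moved in the same libraries, and their part in these results was not tested. Markers are counted as rising or falling, here and below, at an adjusted p under 0.05 in edgeR. The summed level of 10 neuron markers was 6296 and 7011 CPM in sham, 2249 after the lesion, and 5591 and 4943 with NDST3, and 9 of the 10 fell after the lesion. The 9 markers of dopaminergic neurons summed to 941 and 906 CPM in sham, 166 after the lesion, and 293 and 277 with NDST3, and all 9 fell after the lesion. The 8 microglia markers summed to 570 and 420 CPM in sham, 3732 after the lesion, and 1335 and 1964 with NDST3, and all 8 rose after the lesion. The 7 monocyte or macrophage markers summed to 241 and 68.0 CPM in sham, 3326 after the lesion, and 792 and 1315 with NDST3, and 5 of the 7 rose after the lesion. The 9 fibroblast or mural cell markers summed to 489 and 328 CPM in sham, 1370 after the lesion, and 245 and 315 with NDST3, with 7 rising after the lesion and 8 falling with NDST3. The 8 astrocyte markers summed to 6542 and 5449 CPM in sham, 12133 after the lesion and 7686 and 8186 with NDST3, with 4 rising and 1 falling. The 7 oligodendrocyte markers summed to between 11775 and 16372 CPM in all 5 libraries, with the highest sum in the 6-OHDA library. By log2 fold change all 7 were higher after the lesion, where 1 passed, and all 7 were lower with NDST3, where 0 passed. In bulk tissue, fewer cells of a type and less RNA per cell cannot be told apart. NDST3 replicate 2 also held 2115 CPM of 6 ependymal and choroid plexus markers, against 466 to 563 in the other 4 libraries.

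Hdac11, the only class IV deacetylase, also removes long fatty acyl groups from lysines. Its level was 341 and 355 CPM in sham, 137 after the lesion, and 317 and 263 with NDST3. The 6-OHDA library was far below both groups, which did not overlap with it. The log2 fold change against sham was -1.35 ± 0.16 (SE; adjusted p = 0.0085, edgeR), and without either sham library it was -1.38 or -1.32. With NDST3 the gene rose by 1.09 ± 0.16 relative to the lesion (adjusted p = 0.0335, edgeR), the largest change among the 34 in this comparison, and 290 ± 38 CPM (SD, n = 2) remained below the sham mean of 348 ± 10 CPM (SD, n = 2). No H3K27ac or ATAC-seq region was listed for it, and absence from these lists does not show absence of signal.

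Of the class I deacetylases, Hdac1, Hdac2 and Hdac3 are catalytic subunits of the large nuclear corepressor complexes. Hdac1 was at 22.2 and 17.7 CPM in sham, 39.2 after the lesion, and 22.1 and 25.1 with NDST3. It rose after the lesion by 0.98 ± 0.18 on the log2 scale (adjusted p = 0.017, edgeR), and its log2 fold change of -0.73 with NDST3 missed the threshold (adjusted p = 0.0573, edgeR). Hdac2, its close paralog in the same complexes, was at 63.9 and 70.6 CPM in sham and 60.9 after the lesion (log2 fold change -0.14 ± 0.12, adjusted p = 0.375, edgeR), and 69.4 and 73.5 with NDST3. Hdac3, the catalytic subunit of NCoR and SMRT complexes, was at 74.4 and 70.4 CPM in sham, 60.6 after the lesion and 68.5 and 68.3 with NDST3 (log2 fold change after the lesion -0.26 ± 0.10, adjusted p = 0.109, edgeR). Hdac8 passed neither comparison. Hdac1 was the only class I gene that passed the test after the lesion.

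Class IIa deacetylases shuttle between nucleus and cytoplasm and act on MEF2 factors. Hdac5, the most abundant of them here, was at 189 and 201 CPM in sham, 132 after the lesion, and 169 and 164 with NDST3. It fell by 0.57 on the log2 scale after the lesion (SE 0.11, adjusted p = 0.0181, edgeR). Hdac4 went from 41.7 and 46.0 CPM to 29.9, with 41.4 and 37.4 after NDST3 (log2 fold change -0.55 ± 0.14 against sham, adjusted p = 0.0331, edgeR). For both genes, the NDST3 libraries lay above the lesion library, and the increase missed the threshold (adjusted p = 0.0901 for Hdac5 and 0.1 for Hdac4, edgeR). Hdac7, which is known from endothelial cells and thymocytes, went the other way, with 17.3 and 13.8 CPM in sham, 23.2 after the lesion, and 13.6 and 12.8 with NDST3. It was the only one of the 34 that fell with NDST3 by adjusted p (log2 fold change -0.82 ± 0.18, adjusted p = 0.0473, edgeR), after a difference of 0.58 ± 0.18 from sham in the lesion library that missed it (adjusted p = 0.0647, edgeR). The 6 endothelial markers summed to 257 and 223 CPM in sham, 346 after the lesion, and 204 and 226 with NDST3, with 4 rising after the lesion and 4 falling with NDST3, and their part in the change of Hdac7 was not tested. The NDST3 libraries of Hdac9 spread from 27.8 to 42.5 CPM, wider than any difference between its groups.

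Tubulin acetylation is set by Atat1, Hdac6 and Sirt2. Hdac6, a cytoplasmic class IIb enzyme, was at 53.0 and 48.9 CPM in sham, 35.7 after the lesion, and 46.2 and 42.5 with NDST3, and fell after the lesion (log2 fold change -0.51 ± 0.12, adjusted p = 0.0321, edgeR). Sirt2, which is abundant in myelin, moved up, from 233 and 201 CPM in sham to 370 after the lesion (log2 fold change 0.77 ± 0.13, adjusted p = 0.0136, edgeR). With NDST3 it was at 278 and 283 CPM, between the other groups and overlapping neither. Its log2 fold change against sham was then 0.37 (adjusted p = 0.262, edgeR). Atat1 was at 53.2 and 48.0 CPM in sham, 59.4 after the lesion and 49.0 and 55.5 with NDST3, and passed neither test (adjusted p = 0.229 and 0.357, edgeR). The 2 tubulin deacetylases changed in opposite directions after the lesion.

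Of the 7 sirtuins, 3 rose and 1 fell after the lesion, while 18.8% of all genes rose and 17.1% fell. Sirt3, the main mitochondrial deacetylase, was at 50.01 and 49.5 CPM in sham, 27.6 after the lesion, and 45.4 and 39.2 with NDST3. It fell by 0.85 after the lesion (SE 0.14, adjusted p = 0.0123, edgeR) and rose by 0.62 with NDST3 (SE 0.14, adjusted p = 0.0464, edgeR), both on the log2 scale. Sirt5, the mitochondrial desuccinylase, went from 11.0 and 10.9 CPM to 7.26 and missed the threshold (log2 fold change -0.59, adjusted p = 0.0513, edgeR), and Sirt4 did not pass (adjusted p = 0.674, edgeR). The nuclear enzymes Sirt1 and Sirt7 rose after the lesion. Sirt1, a deacetylase of histones and transcription factors, was at 10.8 and 10.7 CPM in sham, 17.7 after the lesion and 12.2 and 13.4 with NDST3 (log2 fold change after the lesion 0.72 ± 0.15, adjusted p = 0.022, edgeR). Sirt7, a nucleolar H3K18 deacetylase, was at 13.3 and 10.3 CPM in sham, 21.5 after the lesion and 10.9 and 12.8 with NDST3 (0.87 ± 0.21, adjusted p = 0.0335, edgeR). The NDST3 libraries of Sirt7 overlapped sham, and the decrease from the lesion library was -0.86 on the log2 scale (adjusted p = 0.0558, edgeR). Sirt6, a chromatin deacetylase of DNA repair and metabolism, did not pass (adjusted p = 0.345, edgeR).

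Among the writers, Ep300 and Crebbp stayed near their sham level after the lesion. Ep300 was at 63.1 and 61.5 CPM in sham, 55.7 after the lesion, and 60.9 and 48.9 with NDST3. Crebbp was at 57.7 and 59.8 CPM in sham, 53.8 after the lesion, and 52.9 and 42.6 with NDST3. Their log2 fold changes after the lesion were -0.16 ± 0.16 and -0.13 ± 0.16 (adjusted p = 0.462 and 0.564, edgeR), smaller than or near their standard errors, and the 2 NDST3 libraries differed from each other by more than either group differed from the lesion.

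Of the 10 writers, 3 fell and 1 rose after the lesion, while 17.1% of all genes fell and 18.8% rose. Kat5 (Tip60), the catalytic subunit of the NuA4 complex, was at 72.4 and 73.1 CPM in sham, 47.2 after the lesion, and 64.4 and 63.1 with NDST3. It fell after the lesion by 0.62 and rose with NDST3 by 0.43 on the log2 scale (adjusted p = 0.0118 and 0.0477, edgeR; SE 0.10 in both). Kat7 (Hbo1), the main H3K14 acetyltransferase, followed closely, with 97.2 and 101 CPM in sham, 68.7 after the lesion, and 93.3 and 91.9 with NDST3 (log2 fold changes -0.53 and 0.43, adjusted p = 0.0169 and 0.0489, edgeR). For both genes the NDST3 libraries lay above the lesion library and below sham. The paralogs Kat2a (GCN5) and Kat2b (PCAF), which serve as alternative catalytic subunits of the same complexes, changed in opposite directions. Kat2a went from 58.1 and 59.9 CPM to 43.4 (log2 fold change -0.44 ± 0.10, adjusted p = 0.0306, edgeR), and Kat2b from 43.4 and 44.6 CPM to 58.7 (0.41 ± 0.10, adjusted p = 0.0331, edgeR). With NDST3, Kat2a was at 56.9 and 53.9 CPM and Kat2b at 49.0 and 47.2 CPM, which passed for neither gene. Kat6a, Kat6b and Kat8 passed in neither comparison.

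Of the 6 readers, 1 passed the test after the lesion and none with NDST3, against 35.8% and 15.6% of all genes. Their median absolute log2 fold changes were 0.28 and 0.20, against 0.60 and 0.47 over all genes and 0.37 and 0.29 over the 156 partner genes. Brd8, a subunit of the NuA4 complex together with Kat5, was at 61.3 and 65.8 CPM in sham, 45.3 after the lesion, and 63.9 and 60.8 with NDST3, and it fell after the lesion (log2 fold change -0.49 ± 0.11, adjusted p = 0.0271, edgeR). Its difference of 0.46 with NDST3 missed the threshold (adjusted p = 0.0528, edgeR). Brd2, a BET protein that binds acetylated H4 and the most abundant reader here, ranged from 211 to 225 CPM over all 5 libraries. Brd9, a subunit of the noncanonical BAF remodeler, missed the threshold after the lesion (log2 fold change -0.47, adjusted p = 0.0512, edgeR). Brd1, Brd3 and Brd7 did not pass.

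The comparison of the NDST3-treated PD model with the untreated one asks which of these genes respond to the vector. By adjusted p, 5 of the 34 genes passed (14.7%), near the 15.6% of all genes. Hdac11, Sirt3, Kat5 and Kat7 rose (11.8%, background 9.06%) and Hdac7 fell (2.94%, background 6.59%). At a fold of 2 with a raw p under 0.05, Hdac11 alone passed, against 15.7% of all genes. These calls share the single 6-OHDA library with the lesion comparison, so a value particular to that library enters both with opposite sign. None of the 34 passed without either sham library or without NDST3 replicate 1, and 2 passed without NDST3 replicate 2 (Hdac11 and Sirt3). In these fits 0, 0, 1 and 3163 of all genes passed. When only the 2 groups compared were fitted, and with the replicate block, none of the 34 and none of all genes passed, while DESeq2 gave 9 of the 34 and 5262 genes in all.

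**Figure D2:**
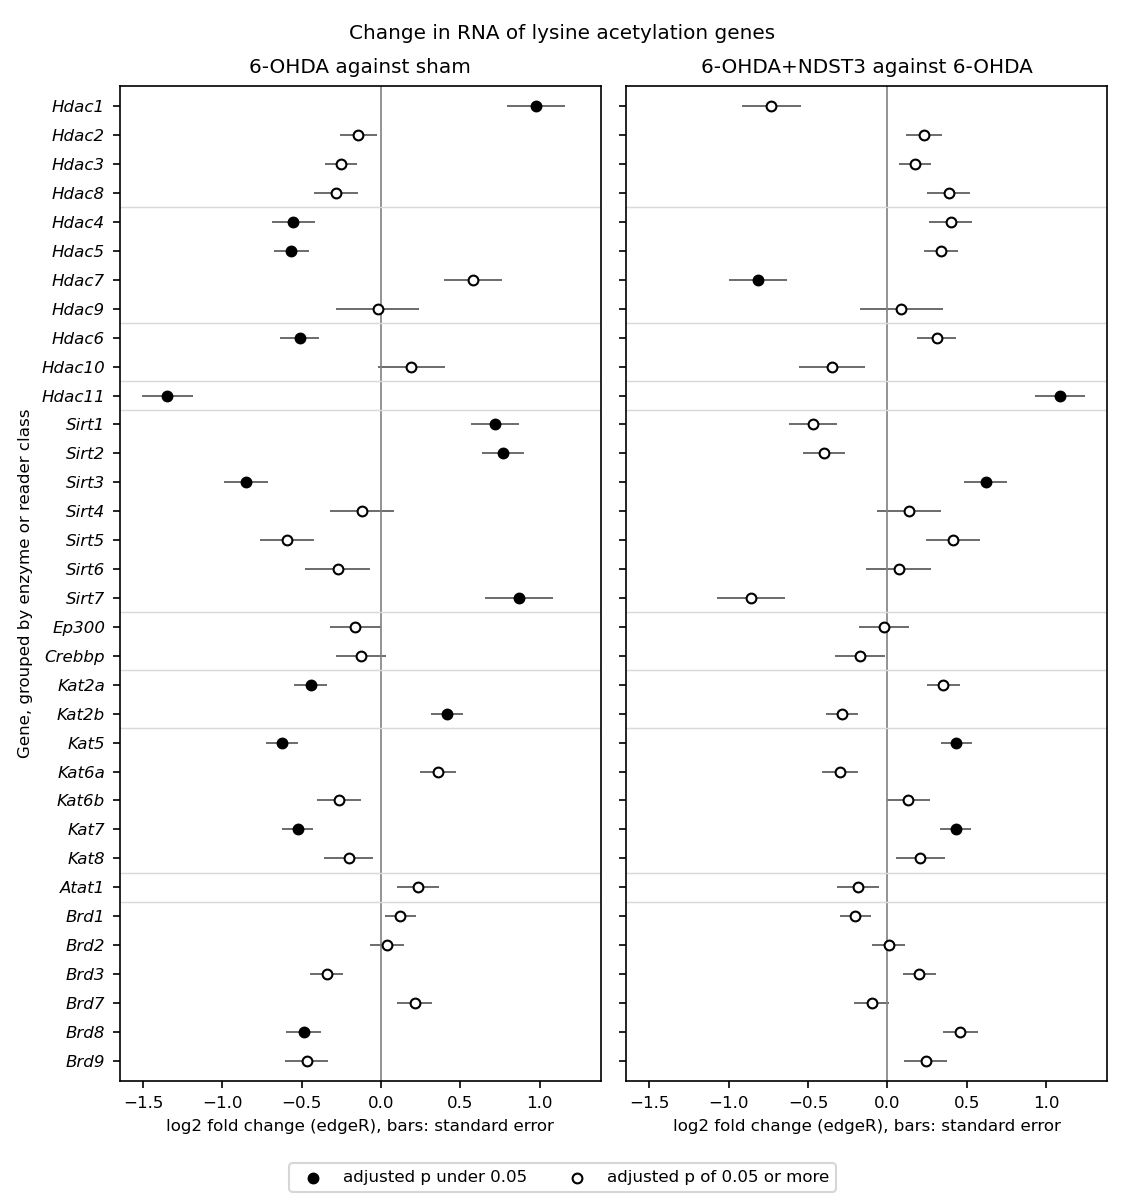
Log2 fold changes of the 34 genes by edgeR, after the lesion against sham (left) and with NDST3 against the lesion (right), with bars for the standard error and filled points for an adjusted p under 0.05. On the left 14 points are filled, from -1.35 for Hdac11 to 0.98 for Hdac1, and on the right 5, from -0.82 for Hdac7 to 1.09 for Hdac11; both panels use the same 6-OHDA library.

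Against sham, the NDST3-treated PD model showed no difference by adjusted p for any of the 34 genes, and 0% of all genes passed. At an unadjusted p under 0.05, 2 of the 34 passed, Sirt2 (log2 fold change 0.37) and Hdac5 (log2 fold change -0.23), against 14.2% of all genes. DESeq2 and limma also gave 0 of the 34 by adjusted p, while DESeq2 gave 1048 genes in all. The median absolute log2 fold change over the 34 was 0.14, against 0.20 over all genes and 0.10 over the partner genes.

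The partner genes of these enzymes, 157 in 5 lists, were tested in the same fit. After the lesion 23 of the 156 that could be tested rose (14.7%, background 18.8%) and 27 fell (17.3%, background 17.1%), and with NDST3 14 rose (8.97%, background 9.06%) and 4 fell (2.56%, background 6.59%). In the deacetylase complexes, 7 of 41 subunits rose (17.1%) and 6 fell (14.6%), shares below or near the same background. Among those that passed, the remodelers Chd5 (268 and 286 CPM in sham, 67.5 after the lesion, 212 and 164 with NDST3) and Chd3 (503 and 551, 296, 460 and 441 CPM) fell, as did Mta3, whereas Mta2 (45.8 and 42.2 CPM in sham, 78.2 after the lesion, 50.8 and 56.1 with NDST3) and the methyl-CpG binding Mbd2 rose. All 5 passed in the opposite direction with NDST3, with log2 fold changes of 1.48 for Chd5, 0.61 for Chd3, 0.96 for Mta3, -0.55 for Mta2 and -0.56 for Mbd2. Chd4, Mbd3, Mta1, Gatad2a, Gatad2b, Rbbp4 and Rbbp7, which like these belong to the NuRD complex, did not pass in either comparison. Chd5 is a neuronal remodeler, and the neuron markers given above moved in the same libraries.

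In the acetyltransferase complexes, 4 of 50 subunits rose (8%) and 7 fell (14%) after the lesion, both below the background. Meaf6, a small subunit of several MYST complexes, fell from 83.3 and 96.9 to 48.3 CPM. Jade1, a scaffold of the Kat7 complex, fell from 42.8 and 47.1 to 26.97 CPM. These 2 were the only subunits that passed with NDST3 (4%, background 9.06% higher), at 85.2 and 76.0 CPM and at 44.1 and 41.3 CPM. Among other readers of acetyl-lysine, 3 of 27 rose (11.1%, background 18.8%) and 6 fell (22.2%, background 17.1%). Trim66 fell from 58.6 and 70.4 CPM to 11.7 and was at 58.3 and 47.0 with NDST3, and Baz1a, a remodeler subunit, rose from 3.05 and 2.13 CPM to 14.8 and was at 4.40 and 7.12 with NDST3. Of 16 other acetyltransferases and coactivators, 1 rose (6.25%, background 18.8%) and 2 fell (12.5%, background 17.1%), Ncoa7 and Ncoa1. Esco2, a cohesin acetyltransferase of S phase, was the one that rose (0.175 and 0.217 CPM in sham and 1.94 after the lesion). The coactivator Ncoa7 was at 78.5 and 94.5 CPM in sham, 36.0 after the lesion, and 79.4 and 80.6 with NDST3, where it rose by 1.15 on the log2 scale (adjusted p = 0.032, edgeR).

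H3K27ac at the genes that encode these enzymes was listed as 1 tag signal per group, although each group has 2 libraries, so no test was possible. Regions are given by their distance from the start of the gene, because the deposited coordinates do not match GRCm38: only 4.44% of CUT&RUN regions lie within 2000 bases of an end of their gene there, although the deposited distances are all at most 1000. No sequence was therefore read by coordinate. Of the 34 regions, 22 were upstream of the start and 16 within 250 bases of it. The median signal of the 34 was 14.1 in sham, 14.2 after the lesion and 22.2 with NDST3, against 14.9, 16.4 and 22.9 over all regions. The highest signal was at Kat5 (-52 bases), with 47.3 in sham, 45.3 after the lesion and 63.1 with NDST3; the next in sham were 2 regions of Hdac10 and the +159 region of Sirt3.

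After the lesion, 8 of the 34 regions were past 1.5-fold higher (23.5%, background 22.2%) and 7 past 1.5-fold lower (20.6%, background 12.9%), on the ratio of signals with 1 added to each. Scaling each group to the same median gave 6 and 8, for which no background is given here. The largest gains were at Sirt6 (+40 bases; 5.52 in sham, 17.7 after the lesion, 25.6 with NDST3), Hdac5 (-403 bases; 9.96, 29.6 and 50.4), Kat6a (-819 bases; 8.37, 23.6 and 35.4) and Hdac8 (+82 bases; 2.79, 8.70 and 14.7). Their ratios to sham after the lesion ran from 2.56 for Hdac8 to 2.86 for Sirt6. At all 4 the signal was higher again with NDST3, but no region of any gene was listed as lower in that comparison. Brd1, Kat8, the second region of Sirt6 and the -778 region of Hdac6 also passed. In RNA, Hdac5 and Hdac6 fell, and Sirt6, Kat6a, Hdac8, Brd1 and Kat8 did not pass the test.

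The largest losses were at Atat1 (-1 base; 11.5 in sham, 3.0 after the lesion, 12.5 with NDST3) and Kat2b (-197 bases; 13.1, 5.45 and 13.9). Both regions of Kat6b and 1 of 2 regions of Brd9 also fell past the threshold. All 3 regions of Sirt3 were lower after the lesion, with ratios of 0.73 at -68 bases, 0.66 at +159 and 0.65 at +324, and the last 2 passed the threshold. The RNA of Sirt3 fell in the same comparison, and which of its 2 printed starts the deposited distances refer to is not given in the sources used here. The RNA of Kat2b rose, and that of Atat1 did not pass the test. Over the 23 genes with a region, the sign of the median region ratio and that of the RNA change were the same for 12.

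**Figure D3:**
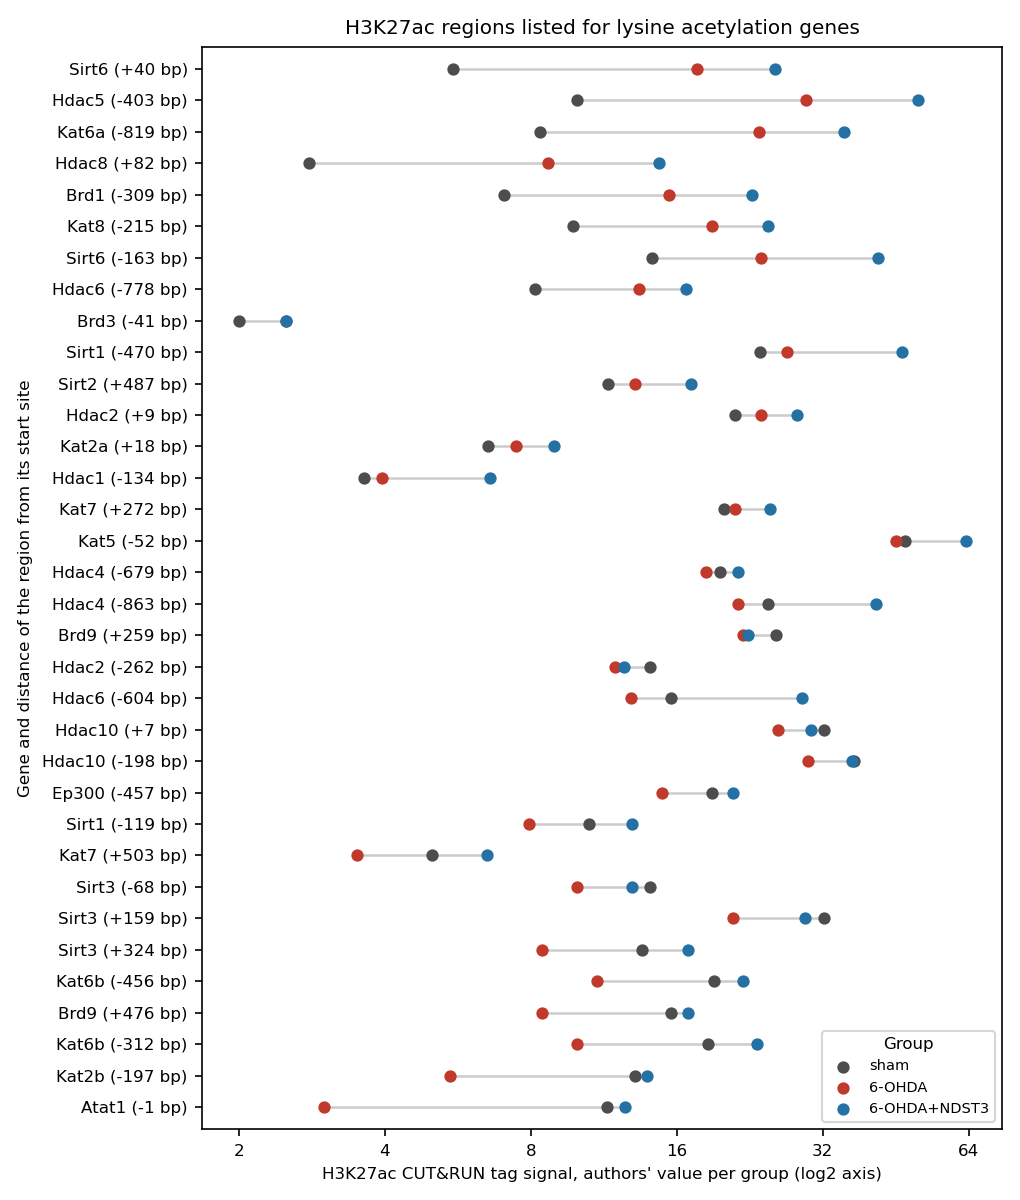
H3K27ac CUT&RUN tag signal of the 34 regions (log2 axis), as the authors' value per group, with the distance of each region from the start of its gene, ordered by the ratio of 6-OHDA to sham. Signal after the lesion (red) is above sham (grey) at the top and below it at the bottom, and the NDST3-treated value (blue) is at or above the lesion value in every region, as it is in all 11424 regions of the table.

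With NDST3, the signal was at or above the lesion value in all 34 regions. This direction is a property of the table and not of these genes: the lowest ratio among all 11424 regions was 1, so none was listed as lower. Past 1.5-fold were 15 of the 34 regions (44.1%, background 32.3% higher and 0% lower). The median log2 ratio over all regions was 0.39. With each group scaled to the same median signal, 4 remained past the threshold: Atat1, Kat2b, the -312 region of Kat6b and the -604 region of Hdac6. No background is given here for the scaled signals. Atat1, Kat2b and Kat6b are also among the regions that lost most after the lesion, and the shared 6-OHDA value enters both ratios. Against sham, 12 of 34 regions were past 1.5-fold higher (35.3%, background 46.8%) and none lower (background 2.88%). Scaling to the same median gave 7 higher and 6 lower, again without a background. Hdac5 had the largest ratio to sham, at 4.69.

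ATAC-seq, with 1 library per group, listed 4 regions of these genes. At the start of Kat8 (+81 bases), which acetylates H4K16, accessibility was 56.4 in sham, 101 after the lesion and 119 with NDST3, and was past 1.5-fold after the lesion. At the start of Sirt7 it was 11.1, 14.3 and 25.5, and 2 regions upstream of Hdac9 were at 9.56, 6.5 and 12.5 (-449 bases) and at 11.5, 8.25 and 10.3 (-551 bases). After the lesion, 1 of 4 was past 1.5-fold higher and none lower, against 17.1% and 13.7% of all regions. With NDST3 against the lesion 2 were higher and none lower (14.3% and 9.39% of all), and against sham 2 were higher and none lower (25.5% and 12.8% of all). Kat8 was past 1.5-fold higher after the lesion in both chromatin assays.

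The scRNA-seq table gives a mean per gene for 9 clusters of the lesioned and of the NDST3-treated brain, 1 library each, on a natural log scale. Sham cells were not analysed here. By the markers listed for each type, cluster 1 was neutrophil-like, 4 T cell-like, 5 mural cell-like, 6 microglia-like, 7 endothelial-like and 9 B cell-like. Cluster 3 was led by Apoe and Spp1 and had the highest level of 4 of 7 monocyte or macrophage markers (mean 0.950). It also had all 8 microglia markers over 0.1 (mean 1.73, against 2.20 in cluster 6), with C1qa and Trem2 highest there. It is left without a name. Cluster 8 had the highest level of all 6 innate lymphoid or NK markers (mean 0.193). It also had all 10 T cell markers over 0.1 (mean 0.894) and has no name. Cluster 2 had the highest level of most astrocyte, oligodendrocyte and ependymal markers together and has no name either. Neuron markers were on average near 0 in every cluster, the highest mean of the 10 being 0.0445 in cluster 7, so these values describe glial, vascular and immune cells.

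Crebbp was the highest of the 34 genes in all 9 clusters, from 0.771 in cluster 2 to 1.19 in cluster 9, and Brd2 was among the highest 3 in most of them. The scRNA-seq means are not TPM, and in TPM of bulk sham tissue Crebbp ranked 27 of 34. Ranks between genes are therefore not compared across the 2 assays. Of the 34 genes, 17 were over a mean of 0.1 in every cluster and 4 in none (Hdac6, Sirt4, Sirt5 and Sirt6). Cluster 2 had the highest value for 12 genes and the endothelial-like cluster 7 for 9, while the neutrophil-like cluster 1 had the lowest for 15. The clusters also differed over all genes: 9835 were over 0.1 in cluster 2, the most, 7657 in cluster 7 and 5842 in cluster 1, the fewest. The share of all genes highest or lowest in each cluster was not computed, so these counts are not a trait of the 34.

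The 8 genes with the widest range between clusters were Hdac9, Hdac7, Hdac8, Brd2, Hdac5, Brd1, Crebbp and Sirt2. Hdac9 was highest in the microglia-like cluster 6 (0.732 after the lesion and 0.617 with NDST3) and lowest in the T cell-like cluster 4 (0.0466 and 0.0330). Hdac7 was highest in the endothelial-like cluster 7 (0.523 and 0.512) and near 0 in the microglia-like cluster 6 (0.00492 and 0.00458). Hdac5 was highest in the mural cell-like cluster 5 (0.420 and 0.536), Hdac8 in cluster 2 (0.626 and 0.60), Brd2 in cluster 7 (0.905 and 0.952) and Brd1 in the T cell-like cluster 4 (0.783 and 0.706). Hdac11 was over 0.1 only in cluster 5 (0.246 and 0.279) and cluster 2 (0.126 and 0.167), and Sirt3 was highest in cluster 2 (0.304 and 0.345), as was Atat1 (0.256 and 0.219). Sirt2 ran from 0.252 in cluster 9 to 0.624 in cluster 2, as means of both groups. The same cluster was highest in both libraries for 21 of the 34 genes, but not for Crebbp.

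**Figure D4:**
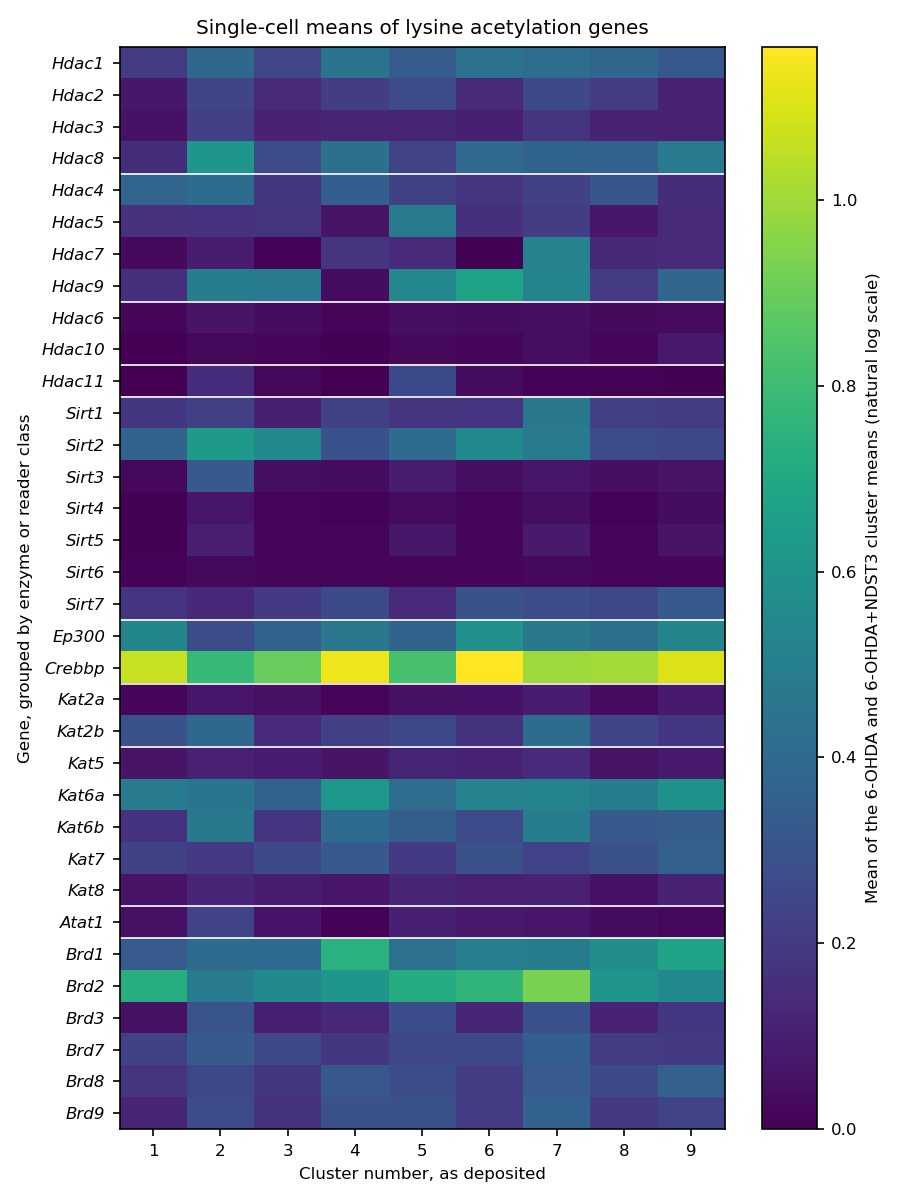
Mean level of the 34 genes in the 9 clusters of scRNA-seq, as the mean of the 6-OHDA and 6-OHDA+NDST3 values on a natural log scale. Crebbp is the brightest row in every cluster, Hdac7 stands out in cluster 7, Hdac9 in cluster 6 and Hdac5 in cluster 5.

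Between the 2 models, differences within clusters were small. Of 215 gene and cluster pairs over a mean of 0.1, 1 was past a log2 difference of 0.25 higher with NDST3 (background 1.59% of all pairs) and 2 lower (background 1.86%). All 3 were in the B cell-like cluster 9: Hdac1 went from 0.235 to 0.410, Hdac9 from 0.475 to 0.296 and Crebbp from 1.19 to 1.01. Cluster 9 was also where most genes of any kind passed (5.06% higher and 7.41% lower). The median absolute difference was 0.043 over the 215 pairs and 0.045 over all pairs. None of Hdac11, Sirt3, Kat5, Kat7 and Hdac7, which changed with NDST3 in bulk RNA, passed in a cluster. The rule is set on the difference of means, so genes of low mean could hardly pass it. Kat5, for example, was at most 0.139 after the lesion and 0.142 with NDST3 (cluster 7). For such genes, not passing does not tell whether they changed within cells.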

How the data were processed

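Tables of RNA-seq, CUT&RUN for H3K27ac, ATAC-seq and scRNA-seq were used. RNA-seq libraries came from a stranded mRNA kit, and the authors used Trimmomatic, then HISAT2 with mm10, then StringTie, and deposited a read count per gene. FPKM and TPM of the same genes were deposited by the authors and correct for length and depth. The tag signal per region was deposited by the authors as 1 value per group, also for CUT&RUN, where a group has 2 libraries. How these were combined, and the normalization, are not given in the sources used here. The scRNA-seq means were deposited after Cell Ranger and Seurat, per cluster, and their values are those of a natural log of normalized counts. The authors removed cells with very many detected genes to limit multiplets. No doublet caller is named, and none could be run on cluster means. Total counts per RNA-seq library ranged from 51003699 to 70533326.

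The members and gene lists were chosen with earlier results of these data known. Counts were tested with edgeR 4.0.16 in R 4.3.3 (TMM factors, default filter, quasi-likelihood test over all 5 libraries, 2 residual degrees of freedom, Benjamini-Hochberg adjustment over all 19300 genes tested of 20328). All 34 members passed the filter. The spread of the single 6-OHDA library was taken from the replicated groups. The standard error is the log2 fold change divided by the square root of F. CPM used TMM factors, and TPM were used to compare genes. Alternatives were RLE factors, no filter, only the 2 groups compared, DESeq2 1.42.0, limma 3.58.1 with log2 FPKM after adding 1 or 0.1, a fold of 2 with a raw p under 0.05, a replicate block and leaving out each library. Simulated data with 200 changed genes were used to test the scripts.

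Ratios of signal used a pseudocount of 1 (0.1 as an alternative), after leaving out regions that reached a signal of 1 in none of the groups (2 as an alternative). 45 ATAC-seq regions without a sham and NDST3 value were left out. Cluster differences were natural log differences converted to log2, for means over 0.1 (0.05 and 0.2 as alternatives). No test was made without replicate columns. Values per library are given for the members that passed the test, at most 8 per direction, for Ep300, Crebbp, Hdac1, Hdac2, Hdac3, Hdac6, Sirt2 and Atat1, for the 5 regions of largest ratio and of highest signal, and for the 3 highest genes per cluster, the 8 of largest range and those past the size rule. Of the partner genes, up to 4 called per direction in each list were eligible. Values of other members, Kat2a among them, were chosen after they were seen.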

Additional observations from a re-analysis of the deposited data

How the results depend on the processing

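The direction of the 14 genes that passed after the lesion and of the 5 that passed with NDST3 was the same in every setting run. With a fold of 2 and a raw p under 0.05, the number passing was 1 in both comparisons. The replicate block gave 1 of the 34 genes after the lesion and 0 with NDST3. The numbers do not come from a stated shared animal or day, and the deviations of replicate 1 from its group mean were correlated at -0.43 between sham and NDST3 over 19300 genes. A crossed pairing, chosen after seeing the data, gave 16 after the lesion and 8 with NDST3, without a background over all genes here. Fitting only the 2 groups compared gave 0 with NDST3, and DESeq2 gave 9. Leaving out 1 library in turn gave 0 to 16 genes after the lesion, 0 to 2 with NDST3 and 0 against sham. In the comparison with NDST3 against sham, every setting gave 0 of the 34 genes. Over all genes, DESeq2 gave 5262 with NDST3 against the lesion, where edgeR gave 3019, and the replicate block gave 1796 after the lesion, where edgeR gave 6916.

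Log2 fold changes that turned sign were those of genes that did not pass. After the lesion, Hdac9 was at 0.13 with the replicate block, 0.13 and 0.15 by limma. With NDST3, Hdac9 was at -0.10 with the block, -0.14 and -0.17 by limma and -0.28 without NDST3 replicate 2 (0.36 without replicate 1); Sirt4 at -0.011 and -0.014 by limma; Sirt6 at -0.031 with the block; Ep300 at 0.061 with the block and 0.099 without NDST3 replicate 2 (-0.19 without replicate 1); and Brd2 at -0.0068 with RLE factors, -0.017 with the block, -0.0080 and -0.0082 by limma, -0.038 without NDST3 replicate 2 (0.021 without replicate 1) and -0.0016 with the crossed pairing.

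Scaling each CUT&RUN group to the same median left 4 regions past 1.5-fold with NDST3, in place of 15, and no background is given for the 4. A size rule of 0.5 left 0 gene and cluster pairs, and differences relative to the median of the cluster left 1, Hdac1 in cluster 9. The causes were not tested. With 1 library of the PD model in RNA-seq, a change of the lesion cannot be told apart from a property of that library.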

Other observations

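Genes that supply or consume acetyl-CoA and NAD, the cosubstrates of these enzymes, changed in both directions. After the lesion 8 of 22 rose (36.4%, background 18.8%) and 6 fell (27.3%, background 17.1%), by edgeR with an adjusted p under 0.05. Consumers such as Cd38 are among those that rose, so the shares are not those of supply alone. This list, like the others, was chosen with earlier results of these data known, so its shares are not independent of them. Acss2 and Acly, which make acetyl-CoA from acetate and from citrate, fell. Acss2 was at 70.8 and 75.9 CPM in sham, 31.5 after the lesion, and 54.6 and 51.1 with NDST3 (log2 fold change after the lesion -1.22 ± 0.12), and Acly at 343 and 296, 172, and 254 and 241 CPM. Nmnat2, the neuronal enzyme that makes NAD in axons, was at 208 and 219 CPM in sham, 118 after the lesion, and 179 and 207 with NDST3. Cd38, an NAD hydrolase of immune and glial cells, rose, with 19.4 and 15.0 CPM in sham, 40.3 after the lesion, and 23.0 and 27.1 with NDST3. With NDST3, Acss2, Nmnat2, Sarm1 and Dlat rose (18.2%, background 9.06%) and Nampt and Nadk fell (9.09%, background 6.59%). Neuron and microglia markers moved in the same libraries, and their part was not tested.

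The 6-OHDA library was the highest or the lowest of all 5 for every gene that passed after the lesion, so these calls rest on 1 library. In the CUT&RUN table, no region of Hdac3, Hdac7, Hdac9, Hdac11, Sirt4, Sirt5, Sirt7, Crebbp, Brd2, Brd7 and Brd8 was listed, 11 genes in all. The whole table lists regions for 7253 genes, and none with a signal lower with NDST3 than after the lesion. Absence from it therefore does not show absence of H3K27ac.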
